A study of Danio rerio with 9 samples.

Results

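The Hox genes encode homeodomain transcription factors that lie side by side in clusters, and the position of a gene in its cluster, numbered as its paralog group, corresponds to how far forward along the body axis the gene is expressed. The members described here are all rows of the deposited gene table whose Ensembl gene name begins with hoxa, hoxb, hoxc or hoxd and a digit, which gave 48 of the 32520 genes. Of these, 13 belong to paralog groups 1 to 4, which pattern the segments of the hindbrain (the rhombomeres) and the neural crest of the pharyngeal arches, and 35 belong to groups 5 to 13, which are expressed further back, in the spinal cord, trunk and fins. Retinoic acid made in the trunk turns many of the anterior genes on, and the TALE proteins Meis, Pbx and Pknox bind DNA together with Hox proteins. Zebrafish carry duplicated clusters, so several genes exist as an a and a b copy.

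RNA was sequenced from the heads of wild-type Tubingen zebrafish at the long-pec stage, and each RNA sample was a pool of 5 heads. There were 3 samples of animals raised conventionally (CV), 3 of animals kept germ-free (GF) and 3 of GF animals exposed to zebrafish metabolites (ZM). GF and ZM embryos had both gone through gentamicin and hypochlorite, which CV embryos had not, and the ZM medium received a sterile filtrate of adult male zebrafish intestines, so that sterilization and the absence of microbes cannot be told apart in GF against CV. Heads were severed where the hindbrain ends, which is close to the domains of the genes described here. The values are FPKM, fragments scaled by transcript length and by the number of mapped fragments, and can be compared between genes. Differences are log2 fold changes of FPKM + 1 with their standard error (SE), tested two-sided with limma. P-values were adjusted by Benjamini-Hochberg over the 15904 genes whose mean FPKM reached 1. The fold changes understate the change of genes with low FPKM, and an exact permutation test of 3 samples against 3 could not go below p = 0.1. In bulk tissue, fewer cells that express a gene and less of its RNA per cell cannot be told apart. The summed FPKM of a sample lay between 587431 and 657383 in CV, 666444 and 704307 in GF and 676251 and 705494 in ZM. All CV sums were thus below all GF and ZM sums, and the main tests did not rescale the values. The authors state a range of sequencing depth for all samples, but the mapped reads behind the values of each sample are unknown. The labels do not say whether the samples of a group come from separate clutches, so that p-values measure only the spread between these samples. Over all genes tested CV 2 lay closer to GF 1 (root mean square distance 0.317 on the log2 scale) and GF 2 (0.337) than to CV 1 (0.518) or CV 3 (0.612). The main counts of Hox genes against CV are given with and without CV 2. Those of the other gene lists, tissue markers and cluster neighbours are given only with it. CV 2 was singled out by these same data, so results without it tend to widen the difference from CV and are not independent support.

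All 13 genes of groups 1 to 4 reached the limit for testing, a mean FPKM of 1, against 24 of the 35 genes of groups 5 to 13. The summed level was highest for group 3, followed by group 5, and low at the posterior end of the series. The sums also depend on the number of genes in a group, from 1 in group 7 to 6 in group 13. Summed over the genes of a paralog group, the mean FPKM was 26.7 for group 1, 12.4 for group 2, 126 for group 3, 44.0 for group 4, 110 for group 5, 75.2 for group 6, 8.89 for group 7, 65.0 for group 8 and 35.6 for group 9. It then dropped to 6.57 for group 10, 3.82 for group 11, 2.04 for group 12 and 4.84 for group 13. The member with the highest level was HOXA3 (ENSDARG00000103862, hoxa3a in RefSeq), with a mean FPKM of 58.4. Its span overlaps those of hoxa4a and hoxa5a in RefSeq, and the part of this in its level was not tested.

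**Figure D1:**
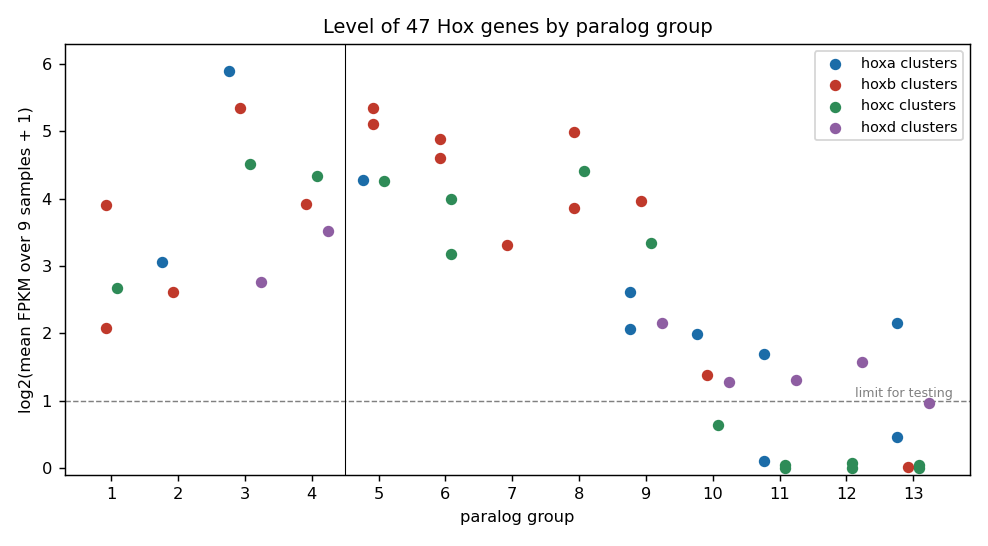
Mean level of 47 Hox genes over the 9 samples, as log2(FPKM + 1), against its paralog group, coloured by cluster letter; the vertical line separates groups 1 to 4 from groups 5 to 13 and the dashed line is the limit for testing. In groups 9 to 13, 9 hoxa and hoxd genes lie above the limit for testing, and the hoxc genes of groups 11 to 13 lie near 0.

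Among the CV samples, groups 2 to 4 and groups 5 to 13 took opposite orders. The summed FPKM of groups 2 to 4 was 216, 178 and 255 in CV 1, 2 and 3, 184, 171 and 141 in the GF samples, and 173, 167 and 154 in the ZM samples. CV 1 and CV 3 were the highest, and CV 2 lay between the highest and the lowest GF sample. The summed FPKM of groups 5 to 13 was 289, 391 and 276 in CV, 309, 339 and 317 in GF, and 275, 305 and 306 in ZM. Here CV 2 was the highest sample and CV 1 and CV 3 were among the lower ones. The ratio of groups 1 to 4 to groups 5 to 13 was therefore 0.838, 0.531 and 1.01 in CV, 0.673, 0.587 and 0.525 in GF and 0.749, 0.640 and 0.579 in ZM, and the groups overlapped. By gene, CV 2 was the lowest CV sample for 7 of the 9 genes of groups 2 to 4 (26.1% of all genes tested) and the highest for 22 of the 24 tested genes of groups 5 to 13 (45.5% of all genes tested). With group 1 included the contrast was weaker, as CV 2 was the lowest for 7 and the highest for 4 of the 13 genes of groups 1 to 4.

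**Figure D2:**
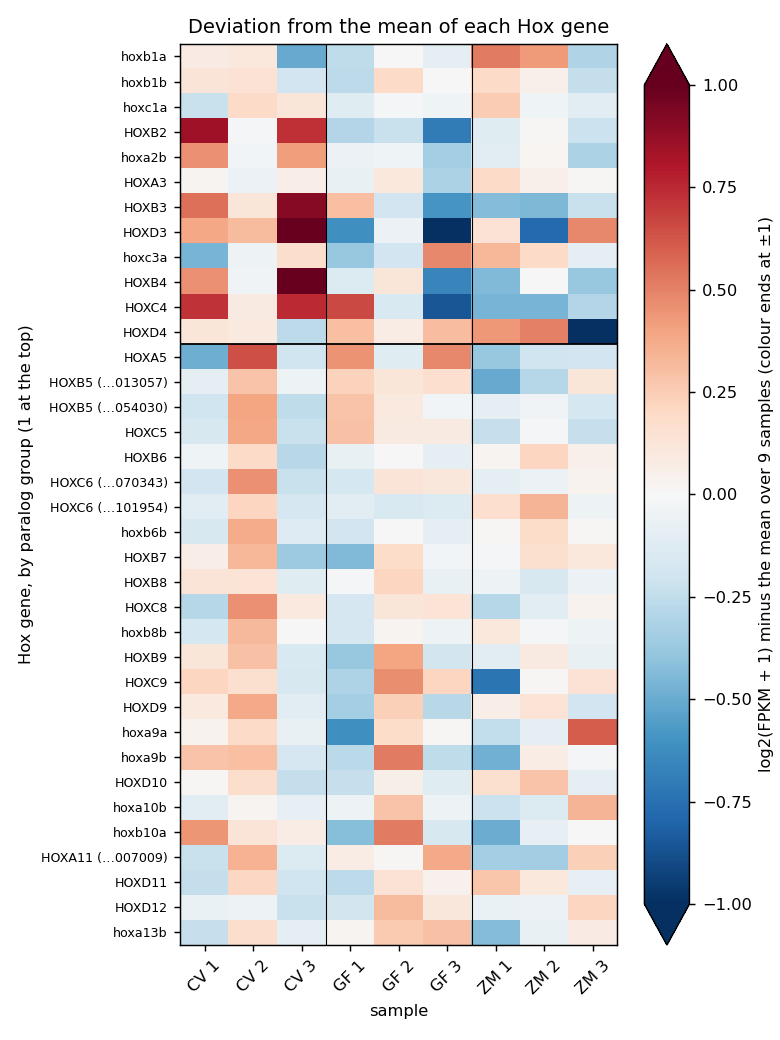
Deviation of log2(FPKM + 1) from the mean over the 9 samples for 36 tested Hox genes, ordered by paralog group from the top, with columns for the 3 CV, 3 GF and 3 ZM samples. CV 1 and CV 3 are high for HOXB2, HOXB3, HOXB4, HOXC4 and HOXD3, and CV 2 is high for most genes below the horizontal line, which marks the start of group 5.

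In GF against CV, which asks whether the absence of microbes goes with a change in expression, no Hox gene passed an adjusted p of 0.05 with limma, where 0.00629% of all genes tested were called lower and 0% higher. By the unadjusted p, taken at a limit of 0.05, hoxa2b, HOXB2, HOXB3, HOXB4 and HOXD3 were lower in GF and no Hox gene was higher, where 4.7% of all genes tested were. These 5 are 13.5% of the 37 tested Hox genes, beside 18.0% of all genes tested that were lower at this p. All are among the 13 genes of groups 1 to 4 (38.5%), and 0 of the 24 tested genes of groups 5 to 13 were among them. The count was 3 without CV replicate 1, beside 19.5% of all genes tested. It was 2 without CV replicate 3 or GF replicate 3, beside 12.4% and 13.4%. It was between 4 and 6 when any other sample was left out, beside 14.7% to 19.7%. The median log2 fold change was -0.11 for groups 1 to 4 and -0.01 for groups 5 to 13, beside 0.02 for all genes tested, and 10 of the 13 and 13 of the 24 had negative values, beside 48.1% of all genes tested. For groups 5 to 13 the direction turned with single samples, with a median of 0.10 and 5 of 24 negative without CV replicate 2, 0.05 and 8 of 24 without GF replicate 1, and -0.10 and 16 of 24 without CV replicate 3 or GF replicate 2. For groups 1 to 4 the median was -0.14 with 8 of 13 negative without CV replicate 2. Over all genes tested the median was 0.08 with 43.3% negative without CV replicate 2, and -0.04 with 54.1% without GF replicate 1. It was 0.01 with 47.9% without CV replicate 3 and 0.03 with 47.2% without GF replicate 2. For hoxa2b, HOXB2 and HOXD3, 3 of the 37 tested Hox genes, the highest GF sample was below the lowest CV sample. This was so for 17.7% of all genes tested. GF lay wholly above CV for 0 of the 37 tested Hox genes, beside 9.14%. Without CV replicate 2, hoxa2b, HOXB2, HOXB3 and HOXB4 passed the adjusted threshold with limma, 4 of the 37 tested Hox genes, where 13.9% of all genes tested were called lower. These 4, HOXC4 and HOXD3, 6 of 37, were lower at the unadjusted p, where 19.7% were. CV 2 was left out for lying near GF in these data, so these calls were favoured by that choice.

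In group 1, CV, GF and ZM overlapped for each gene. In zebrafish, hoxb1a (ENSDARG00000008174) specifies rhombomere 4 with its facial motor neurons, and hoxb1b (ENSDARG00000054033) acts earlier, in the first subdivision of the hindbrain. The FPKM of hoxb1a was 3.39, 3.46 and 1.92 in CV, 2.48, 3.16 and 2.90 in GF and 4.95, 4.58 and 2.36 in ZM. That of hoxb1b was 15.3, 15.5 and 12.0 in CV, 11.4, 16.0 and 13.9 in GF and 16.0, 14.4 and 11.6 in ZM. The groups overlapped for both genes, and hoxb1b was the more abundant copy in every sample, with hoxb1a at between 0.159 and 0.318 of its level. The span of hoxb1b overlaps those of hoxb5b and hoxb6b in RefSeq, as described below, and the part of this in the ratio was not tested. For hoxc1a (ENSDARG00000070337) the samples lay between 4.47 and 6.58. The log2 fold changes of hoxb1a, hoxb1b and hoxc1a lay between -0.09 and -0.01 in GF against CV, with adjusted p of at least 0.801 from limma, and between 0.02 and 0.33 in ZM against GF.

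Both genes of group 2 had GF samples that did not overlap CV. The gene listed as HOXB2 (ENSDARG00000000175, hoxb2a in RefSeq) is expressed from rhombomere 3 backwards and in the crest of the second pharyngeal arch. Its FPKM was 9.40, 4.71 and 8.60 in CV, 3.74, 3.96 and 2.56 in GF and 4.31, 4.83 and 3.99 in ZM. No GF sample reached the CV range, CV 2 lay closest to GF, and the ZM samples all exceeded GF but overlapped CV 2. The mean in GF was 3.42 ± 0.752 (SD, n = 3) against 7.57 ± 2.51 (SD, n = 3) in CV, a log2 fold change of -0.92 (limma, SE 0.24, adjusted p = 0.0564). Without CV replicate 2 the adjusted p was 0.00343 with limma, where 13.9% of all genes tested were called lower. That sample was left out for lying near GF in these data, so the smaller value is not independent support. In ZM, with 4.38 ± 0.422 (SD, n = 3), the log2 fold change was 0.30 against GF (limma, adjusted p = 0.889) and -0.63 against CV (limma, adjusted p = 0.169). The gene hoxa2b (ENSDARG00000023031) takes part in giving the second arch its identity in zebrafish. Its FPKM was 10.2, 7.02 and 9.95 in CV, 6.85, 6.94 and 5.45 in GF and 6.54, 7.29 and 5.57 in ZM. Again the GF samples were all below the CV samples, though CV 2 and GF 2 were close, and the ZM samples overlapped both groups. GF against CV gave a log2 fold change of -0.43 (limma, SE 0.18, adjusted p = 0.194) and ZM against GF gave 0.01.

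Group 3 genes act in rhombomeres 5 and 6 and in the third arch, and its 4 members did not behave alike. HOXD3 (ENSDARG00000059280, hoxd3a in RefSeq) had the largest difference in GF against CV of the 37 tested Hox genes. Its FPKM was 7.03, 6.66 and 12.8 in CV, 3.01, 4.90 and 2.0 in GF and 5.80, 2.59 and 7.56 in ZM. GF and CV did not overlap, and the ZM samples spanned the range from GF to CV. GF against CV gave a log2 fold change of -1.19 (limma, SE 0.37, adjusted p = 0.0827), ZM against GF gave 0.52 and ZM against CV gave -0.67. HOXB3 (ENSDARG00000029263, hoxb3a in RefSeq) had an FPKM of 55.4, 40.9 and 71.4 in CV, 46.5, 32.6 and 24.6 in GF and 27.4, 27.2 and 31.9 in ZM. GF 1 lay above CV 2, and all ZM samples lay below all CV samples. In GF against CV it had a log2 fold change of -0.69 (limma, adjusted p = 0.123), in ZM against GF -0.21 and in ZM against CV -0.90 (limma, SE 0.24, adjusted p = 0.156), so its mean in ZM was below that in GF. HOXA3 showed little spread, with 58.6 ± 2.57 in CV, 54.8 ± 8.18 in GF and 61.7 ± 4.26 in ZM (SD, n = 3 each), and differed by -0.11 on the log2 scale in GF against CV (limma, adjusted p = 0.688). The samples of hoxc3a (ENSDARG00000070339) lay between 15.1 and 24.2 in CV, 16.1 and 30.1 in GF and 19.9 and 27.1 in ZM, and the groups overlapped.

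Group 4 genes are expressed in the posterior hindbrain, from rhombomere 7 backwards, and respond to retinoic acid. HOXB4 (ENSDARG00000013533, hoxb4a in RefSeq) had an FPKM of 18.5, 12.9 and 28.8 in CV, 11.9, 14.5 and 7.98 in GF and 9.47, 13.3 and 9.93 in ZM. CV 2 fell within the range of the GF and ZM samples. GF against CV gave a log2 fold change of -0.72 (limma, SE 0.29, adjusted p = 0.168) and ZM against CV gave -0.77 (limma, adjusted p = 0.166). HOXC4 (ENSDARG00000070338, hoxc4a in RefSeq) had an FPKM of 30.1, 19.1 and 30.7 in CV, 28.7, 16.0 and 9.44 in GF and 12.7, 12.7 and 14.4 in ZM. GF 1 lay just below CV 1 and CV 3, and all ZM samples lay below all CV samples. GF against CV gave a log2 fold change of -0.64 (limma, SE 0.33, adjusted p = 0.286) and ZM against CV gave -0.93 (limma, adjusted p = 0.159), and without GF replicate 3 the difference in GF became -0.27. HOXD4 (ENSDARG00000059276, hoxd4a in RefSeq) had a higher mean in GF than in CV. Its FPKM was 10.7, 10.5 and 7.97 in CV, 12.3, 10.3 and 12.3 in GF and 13.5, 14.3 and 2.61 in ZM, with ZM 3 far below every other sample. GF against CV gave a log2 fold change of 0.24 (limma, adjusted p = 0.796).

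**Figure D3:**
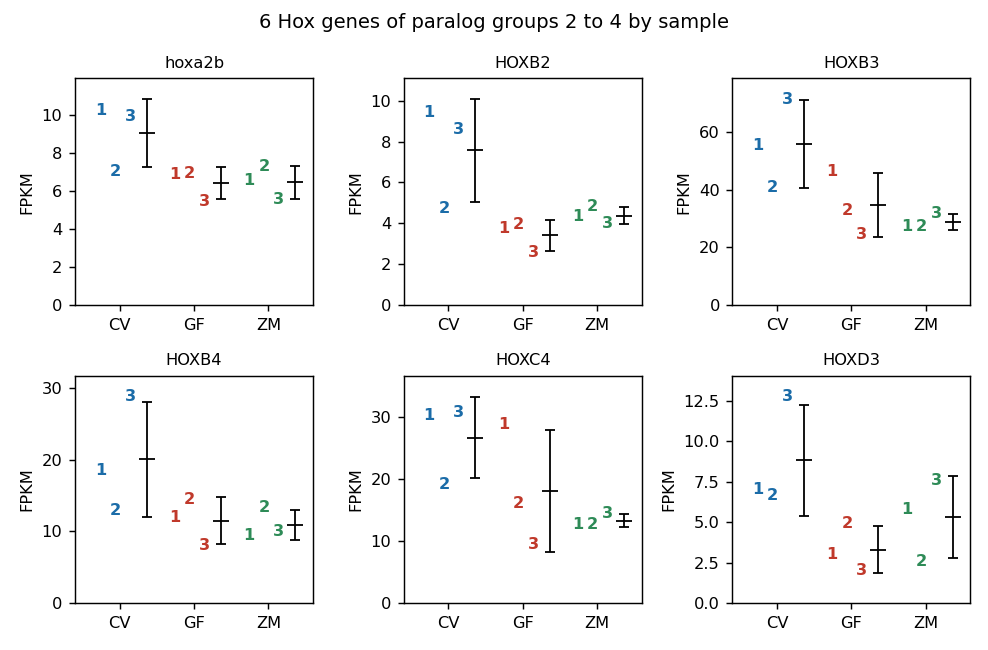
FPKM of 6 genes of paralog groups 2 to 4 in the 3 CV, 3 GF and 3 ZM samples; each digit is a sample, written as its replicate number, and the bar beside it is the mean ± SD (n = 3). CV 1 and CV 3 lie above all GF samples for these genes, and CV 2 lies at or near the GF samples, except for HOXD3, where it lies near CV 1.

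Several of these neighbours overlap in the annotation, so that reads could be assigned to either. In the RefSeq table of assembly GRCz12tu, which is not the build of the deposited values, the span of hoxd3a overlaps that of hoxd4a, the span of hoxc3a overlaps those of 5 other hoxc genes (hoxc4a, hoxc5a, hoxc6a, hoxc8a and hoxc9a), that of hoxb3a overlaps hoxb4a, hoxb5a and hoxb6a, that of hoxb1b overlaps hoxb5b and hoxb6b, and that of hoxa3a overlaps hoxa4a and hoxa5a. How reads of overlapping transcripts were divided between them was not tested. HOXD3 took 74.3% of the summed FPKM of HOXD3 and HOXD4 in ZM 3 but 13.9% in GF 3. The sum of the pair was 17.7, 17.2 and 20.7 in CV, 15.3, 15.2 and 14.3 in GF and 19.3, 16.9 and 10.2 in ZM. All GF sums lay below all CV sums, with means of 15.0 ± 0.545 and 18.5 ± 1.91 (SD, n = 3 each), a smaller relative difference than that of HOXD3 alone. The sum of hoxc3a and HOXC4 was 45.3, 39.6 and 54.9 in CV, 44.9, 34.5 and 39.5 in GF and 39.8, 37.1 and 34.3 in ZM, and GF overlapped CV. The sum of HOXB3 and HOXB4 averaged 75.9 ± 23.3 in CV, 46.0 ± 12.95 in GF and 39.7 ± 2.57 in ZM (SD, n = 3 each), and the pair kept a ratio between 2.05 and 3.90 in all samples. HOXB3 and HOXB5 (ENSDARG00000013057) were less steady, with a ratio from 0.658 in GF 3 to 2.24 in CV 3. In CV 2 HOXB3 was the lowest CV sample, at 40.9 FPKM, and this HOXB5 gene the highest, at 40.7. The part of read division in the opposite orders of groups 2 to 4 and 5 to 13 among the CV samples was not tested.

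**Figure D4:**
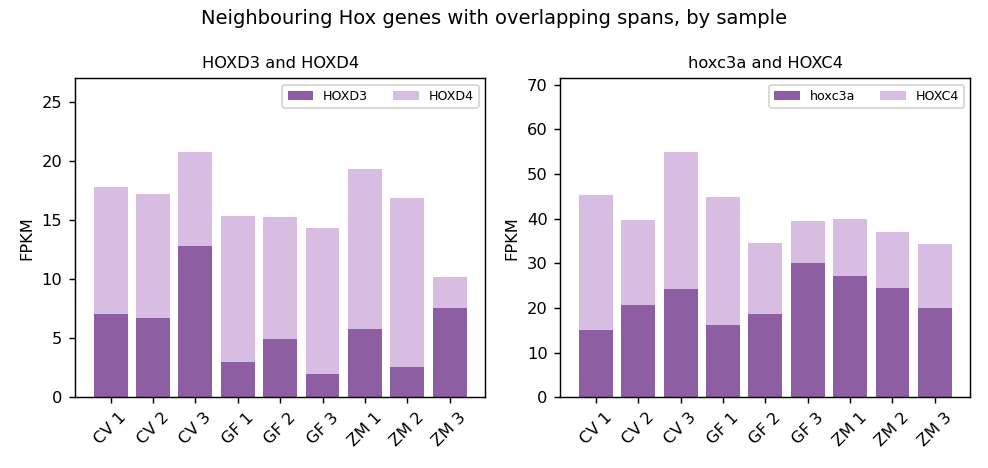
FPKM of HOXD3 and HOXD4 (left) and of hoxc3a and HOXC4 (right), stacked, in each of the 9 samples. The division between the members of a pair changes more from sample to sample than the height of the bar, as in ZM 3 and GF 3 for HOXD3 and HOXD4.

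Group 5 is the first group behind the hindbrain genes, and in zebrafish its hoxb members take part in placing the pectoral fin. The gene HOXA5 (ENSDARG00000102501, hoxa5a in RefSeq) had an FPKM of 12.3, 28.1 and 15.3 in CV, 24.5, 16.2 and 25.1 in GF and 13.3, 15.3 and 15.3 in ZM. Of the pair of genes listed as HOXB5, ENSDARG00000013057 had 31.2, 40.7 and 31.9 in CV, 39.1, 36.2 and 37.3 in GF and 23.1, 27.1 and 36.1 in ZM. ENSDARG00000054030 had 34.0, 51.7 and 32.7 in CV, 48.01, 42.1 and 38.5 in GF and 36.8, 38.2 and 34.5 in ZM. HOXC5 (ENSDARG00000070340, hoxc5a in RefSeq) had 16.0, 23.8 and 15.2 in CV, 22.2, 19.2 and 19.1 in GF and 15.1, 17.9 and 15.2 in ZM. All 4 genes had their highest CV value in CV 2, and all 3 GF samples of each lay above CV 1 and CV 3. Without CV replicate 2, the highest CV sample of each, HOXA5, HOXC5 and HOXB5 (ENSDARG00000054030) were higher in GF at an unadjusted p under 0.05. They were 3 of the 37 tested Hox genes, beside 11.5% of all genes tested. The group 5 genes also shared a pattern in ZM against GF, which asks whether metabolites given to germ-free animals go with a change. All 3 ZM samples lay below all 3 GF samples for each of the 4 genes, which were singled out after their values were seen. They were 4 of the 37 tested Hox genes, beside 6.17% of all genes tested. For the HOXB5 genes the groups nearly touched, with 36.1 in ZM 3 against 36.2 in GF 2, and 38.2 in ZM 2 against 38.5 in GF 3. Group 5 spans overlap those of group 1 or group 3 genes, as described above, and the part of this was not tested.

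In ZM against GF no Hox gene passed an adjusted p of 0.1 with limma, where 0% of all genes tested were called lower and 0.00629% higher. By the unadjusted p at 0.05, only HOXB5 (ENSDARG00000013057) was lower, with a log2 fold change of -0.40 (limma, SE 0.17, adjusted p = 0.848), and no Hox gene was higher, beside 3.16% and 2.55% of all genes tested. The count of lower genes was 0 without CV replicate 1 or 3, GF replicate 1 or ZM replicate 1 or 2. In these fits between 1.08% and 3.87% of all genes tested were lower. The count was 3 without CV replicate 2, beside 3.69%. The log2 fold changes of HOXA5, HOXC5 and the other HOXB5 gene were -0.53, -0.31 and -0.22. Deviations from the group means correlated positively between same-numbered GF and ZM samples, though the labels do not say that these are paired. With the replicate number as a block and only these 2 groups in the model, a fit added after seeing the data, HOXA5, HOXB5 (ENSDARG00000013057), HOXC5, HOXC9 and hoxa13b were lower in ZM at an unadjusted p under 0.05, beside 7.56% of all genes tested, and the smallest adjusted p of a Hox gene was 0.228. The median log2 fold change was 0.04 for groups 1 to 4 and -0.06 for groups 5 to 13, beside 0.004 for all genes tested. ZM lay wholly above GF for HOXB2, HOXB6, hoxb6b and HOXC6 (ENSDARG00000101954), 4 of 37 genes, beside 10.4% of all genes tested. GF samples are shared by both comparisons, so genes low in GF and higher again in ZM are given only by their own values above.

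**Figure D5:**
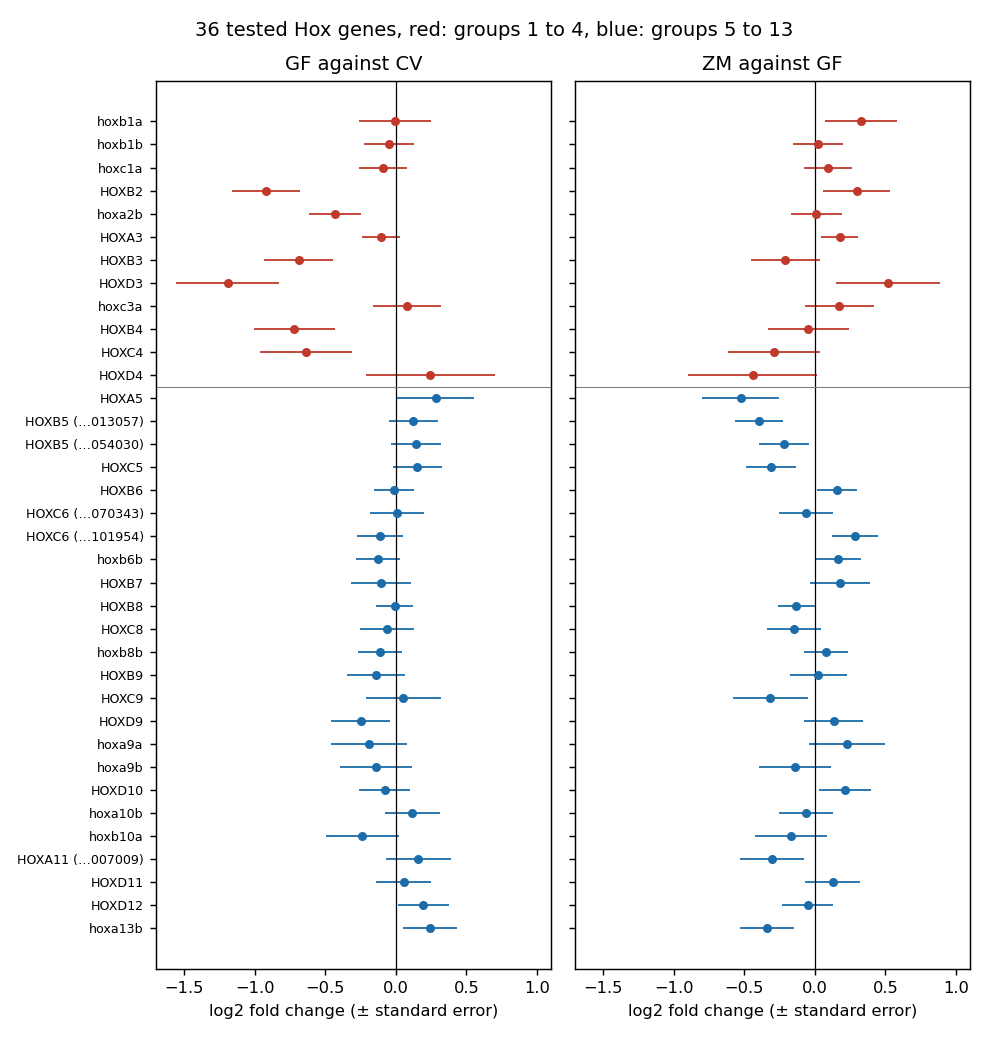
Log2 fold change of 36 tested Hox genes, ordered by paralog group from the top, in GF against CV (left) and ZM against GF (right), with bars of 1 standard error; groups 1 to 4 are red and groups 5 to 13 blue. In GF against CV the genes to the left of -0.4 are all in groups 2 to 4, and in ZM against GF the 4 genes of group 5 lie between -0.53 and -0.22.

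In ZM against CV no Hox gene passed an adjusted p of 0.05 with limma, as for all genes tested (0% called in either direction). At an unadjusted p under 0.05, hoxa2b, HOXB2, HOXB3, HOXB4 and HOXC4 were lower in ZM. They were 13.5% of the 37 tested Hox genes, beside 16.5% of all genes tested. By part they were 5 of the 13 genes of groups 1 to 4 and 0 of the 24 of groups 5 to 13. No Hox gene was higher, beside 6.94%. The count of lower genes was 2 without CV replicate 1 and 2 without ZM replicate 1, beside 17.5% and 9.09% of all genes tested. It was 1 without CV replicate 3, beside 7.16%. With every sample scaled to the same total FPKM it was 7, beside 21.5% of all genes tested, with HOXB5 (ENSDARG00000013057) and HOXB8 of groups 5 to 8 added, and HOXB5 (ENSDARG00000013057) was also lower without ZM replicate 3. The ZM samples lay below all CV samples for HOXB3, HOXC4 and hoxb10a, 3 of 37, beside 13.3% of all genes tested, and above them for 0, beside 8.51%. Without CV replicate 2, hoxa2b, HOXB2, HOXB3 and HOXB4, 4 of 37, had an adjusted p under 0.05 with limma, where 12.2% of all genes tested were called lower. Both comparisons with CV use the same CV samples, so HOXB2, HOXB3, HOXB4 and hoxa2b appearing in each is not independent evidence.

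By cluster letter, 12 of the 14 tested hoxb genes had a negative log2 fold change in GF against CV, beside 4 of 9 hoxa, 4 of 8 hoxc and 3 of 6 hoxd genes and 48.1% of all genes tested. The hoxb count rested on single samples. Without CV replicate 2 it was 5 of 14, beside 4 of 9 hoxa, 2 of 8 hoxc and 2 of 6 hoxd genes and 43.3% of all genes tested, and without GF replicate 1 it was 7 of 14, beside 54.1%.

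Groups 6 to 8 are expressed in the spinal cord and trunk mesoderm. The most abundant were HOXB8 (ENSDARG00000056027), with samples between 27.6 and 35.9 FPKM, hoxb6b (ENSDARG00000026513), between 24.9 and 37.3, HOXB6 (ENSDARG00000010630), between 19.1 and 27.3, and HOXC8 (ENSDARG00000070346), between 16.3 and 27.9. The 8 genes of these groups had log2 fold changes between -0.13 and 0.01 in GF against CV and between -0.15 and 0.28 in ZM against GF. Copies of a gene kept their order. The ratio of hoxb6b to HOXB6 lay between 1.13 and 1.39 and that of hoxb8b to HOXB8 between 0.350 and 0.506 in the 9 samples, and of the pair listed as HOXC6, ENSDARG00000070343 was between 1.36 and 2.29 times as abundant as ENSDARG00000101954. Of the HOXC6 pair, ENSDARG00000101954 had 7.41, 9.47 and 7.03 FPKM in CV, 7.38, 7.11 and 7.23 in GF and 9.12, 10.4 and 7.73 in ZM, so that its GF samples were nearly equal and all below ZM. HOXB7 (ENSDARG00000056030), the only member of its group, lay between 6.21 and 11.3 FPKM. The summed FPKM of groups 5 to 8 was 233, 329 and 229.9 in CV, 268, 270.4 and 265 in GF and 233, 252 and 249.7 in ZM. CV 2 was above all other samples, and CV 1 and CV 3 were close to each other and below all GF samples. For 11 of the 12 genes of groups 5 to 8, log2(FPKM + 1) had a larger standard deviation in CV than in GF, against 4 of 12 tested genes of groups 9 to 13, 4 of 9 genes of groups 2 to 4 and 22 of all 37 tested Hox genes (59.5%), beside 70.6% of all genes tested.

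The hoxa and hoxd genes of groups 9 to 13 are expressed in the fin buds and fin fold of zebrafish as well as in the tail, and the 9 of them that were tested were low but present in every sample, with means between 1.42 and 5.14 FPKM. Among them hoxa13b (ENSDARG00000036254), which with its copy is needed for the fin rays, had 2.76, 3.96 and 3.12 FPKM in CV, 3.48, 4.28 and 4.41 in GF and 2.25, 3.18 and 3.66 in ZM, with overlapping groups, and it was between 7.83 and 13.3 times as abundant as hoxa13a (ENSDARG00000100312). HOXB9 (ENSDARG00000056023) had the highest mean of groups 9 to 13, 14.7 FPKM, and HOXC9 (ENSDARG00000092809) followed with 9.11. HOXB9 had 15.9, 18.0 and 12.9 FPKM in CV, 10.9, 19.4 and 12.7 in GF and 13.4, 15.5 and 13.7 in ZM. HOXC9 had 10.4, 10.02 and 7.81 in CV, 6.96, 12.6 and 10.4 in GF and 4.93, 8.92 and 9.89 in ZM. GF 2 was the highest sample for both, and the groups overlapped. The copies hoxa9b (ENSDARG00000056819) and hoxa9a (ENSDARG00000105013) lay between 3.31 and 7.63 and between 1.69 and 5.25 FPKM, and their ratio, from 0.937 to 2.35, was less steady than that of the hoxb6 copies. For hoxb10a (ENSDARG00000011579), with 2.45, 1.78 and 1.68 in CV, 0.892, 2.64 and 1.28 in GF and 0.802, 1.40 and 1.54 in ZM, the ZM samples lay below CV and GF overlapped both. The 4 hoxd genes HOXD9 to HOXD12 overlapped between all groups, with log2 fold changes between -0.25 and 0.19 in GF against CV. The hoxc genes of groups 11 to 13 and HOXB13, which act in the tail region of vertebrates, were at the floor, with no sample above 0.198 FPKM, and 1 of the pair listed as HOXC12 (ENSDARG00000103133) was listed at 0 in all 9 samples. The 11 genes under the limit for testing were the 6 hoxc genes of groups 11 to 13, HOXC10 (ENSDARG00000070348), HOXB13 (ENSDARG00000056015), hoxa13a, hoxd13a (ENSDARG00000059256) and 1 of the pair listed as HOXA11 (ENSDARG00000104162). Of these, hoxd13a came closest to the limit, with 0.861 ± 0.115 FPKM in CV, 1.15 ± 0.0567 in GF and 0.842 ± 0.181 in ZM (SD, n = 3 each), and all its GF samples lay above all its CV and ZM samples.

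Of the genes that work with or upstream of Hox, many had lower levels in GF, and none passed an adjusted p of 0.05 with limma. Of 12 TALE cofactors tested, 7 had an unadjusted p under 0.05 with lower values in GF and 0 with higher values, and the list had a median log2 fold change of -0.47. Over all genes tested, 18.0% were lower and 4.7% higher at this p and the median was 0.02, and these shares stand beside each of the list counts that follow. MEIS2 (ENSDARG00000098240) had 48.6 ± 24.7 FPKM in CV, 12.0 ± 2.52 in GF and 14.1 ± 1.54 in ZM (SD, n = 3 each), a log2 fold change of -1.79, and pbx4 (ENSDARG00000052150), the main Pbx gene of the early zebrafish hindbrain, had 23.96 ± 11.7, 6.26 ± 0.654 and 8.85 ± 1.53, a log2 fold change of -1.65 (limma, adjusted p = 0.0531 for both). Of 21 retinoic acid pathway genes tested, 9 were lower and 0 higher, with a median of -0.34. Among the receptors, RARG (ENSDARG00000034117) had a log2 fold change of -1.21 and rarab (ENSDARG00000034893) of -1.08. Of 10 hindbrain segmentation and upstream factors tested, 6 were lower and 1 higher, with a median of -0.90. The only higher one was irx7 (ENSDARG00000002601), a gene of the anterior hindbrain border, with a log2 fold change of 0.59. Of 16 Polycomb genes, which keep Hox genes silent, 4 were lower and 1 higher with a median of 0.22, and of 11 Trithorax genes, which keep them active, 5 were lower and 0 higher with a median of -0.37. In ZM against GF the medians were -0.14 for the cofactors, 0.17 for retinoic acid, 0.34 for the segmentation factors, -0.04 for Polycomb and 0.21 for Trithorax. Both comparisons share the GF samples, which by itself favours a positive value for a list low in GF. At an unadjusted p under 0.05, 1, 0, 1, 1 and 0 genes of these lists were lower and 0, 2, 0, 1 and 1 higher. Of all genes tested 3.16% were lower and 2.55% higher, and no gene of these lists passed an adjusted p of 0.1 with limma.

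Genes of other tissues were measured because the place where the head was severed sets how much hindbrain, trunk and fin a head sample holds. All 17 forebrain and midbrain genes were present, of which 5 were lower and 2 higher in GF by the unadjusted p, beside 18.0% and 4.7% of all genes tested, with summed FPKM between 233 and 332 in CV, 214 and 254 in GF and 188 and 225 in ZM. For these 17 genes GF differed from CV by a median of -0.25 on the log2 scale, with 12 negative and 5 positive values, from -1.55 to 0.39. The lowest value, -1.55, belonged to OTX2 (ENSDARG00000011235), which is absent from the hindbrain. Its level in CV 2 was 16.8 FPKM against a CV mean of 38.7. Of 9 pectoral fin bud genes tested, 1 was lower and 0 higher in GF, with sums between 147 and 172 in CV, 164 and 174 in GF and 126 and 160 in ZM. Of 8 pronephros genes 3 were lower, with sums between 80.1 and 99.6 in CV, 54.6 and 76.2 in GF and 71.5 and 77.7 in ZM, and of 8 notochord genes 2 were lower and 1 higher, with sums between 77.7 and 114 in CV, 71.7 and 85.7 in GF and 48.8 and 85.4 in ZM. Skeletal muscle genes summed to between 9523 and 13828 in CV, 6021 and 12321 in GF and 7653 and 10817 in ZM, with 1 of 10 lower in GF. Genes of gut, pancreas and liver (sums from 492 to 1318, 541 to 881 and 563 to 1046 in CV, GF and ZM), erythrocytes (305 to 761, 601 to 632 and 661 to 751) and heart (95.7 to 112, 119.9 to 145 and 121 to 135) had no gene lower or higher at this p in GF against CV. No marker of these lists was at 0 in all samples, and the part of tissue makeup in the Hox values was not tested.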

How the data were processed

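The authors checked reads with FastQC 0.11.8, mapped them to GRCz11 with HISAT2 2.1.0 and deposited FPKM from StringTie 1.3.4d. Their DESeq2 analysis of HTSeq counts was not used here. FPKM were tested on log2(FPKM + 1) without rescaling, in R 4.3.3 with limma 3.58.1 (lmFit, contrasts.fit, eBayes with trend), fitting the 3 groups jointly, with no replicate block. The thresholds were an adjusted p of 0.05, or 0.1 for ZM against GF. Beyond the range of depth that the authors state, the number of reads behind an FPKM is unknown: of 940 genes low in CV 1 and CV 2, at most 5 shared a ratio. No count model was fitted. The test was checked on simulated data.

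Names came from the gene name table (29201 of 32520 IDs); RefSeq names are given where a single gene has that stem, and hoxa4a was not analysed here. List names with an a or b suffix were matched with or without it. The values of 1 tested Hox gene and of 1 upstream factor are not reported here, and that Hox gene is not drawn; both are in the counts. The other Hox genes are accounted for; of the other lists, genes at an unadjusted p under 0.05 in GF against CV could be named, at most 6 a list. The members and lists were chosen with earlier results of these data known.

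Deviations from the group means correlated between same-numbered samples with 0.409, 0.466 and 0.616 in GF and ZM. The correlations were -0.0580, 0.146 and 0.316 in CV and GF and 0.0624, 0.0605 and 0.488 in CV and ZM. The labels give no pairing beyond the replicate number. Samples with different numbers were not correlated, so whether samples are paired was not settled. Also tried were a pseudocount of 0.1, a mean FPKM of 5 or no filter, rescaling by median of ratios, equal sum or quantiles, fits of only the 2 groups compared, no trend, the block, and leaving out single samples.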

Additional observations from a re-analysis of the deposited data

How the results depend on the processing

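No Hox gene passed an adjusted threshold in any comparison under the 9 planned settings with all samples. The share of all genes called was itself unstable in GF against CV. With a pseudocount of 0.1, 5.29% of all genes tested were called lower there, and HOXB2 had an adjusted p of 0.0504 with limma. In each of the other planned settings at most 1 of all genes tested was called lower in GF. When single samples were left out, the count of Hox genes past it lay between 0 and 4 in GF against CV and in ZM against CV. It was 4 only without CV replicate 2, where 13.9% and 12.2% of all genes tested were called lower. In ZM against GF the Hox count stayed 0. The log2 fold changes of hoxa2b, HOXB2, HOXB3, HOXB4, HOXC4 and HOXD3 kept their sign under every setting in GF against CV and in ZM against CV. With single samples left out, the counts at an unadjusted p under 0.05 were as follows. In GF against CV between 2 and 6 Hox genes were lower, beside 12.4% to 19.7% of all genes tested. Between 0 and 3 were higher, beside 295 to 1824 of all genes tested. In ZM against CV between 1 and 5 were lower, beside 7.16% to 19.9%, and between 0 and 2 higher, beside 495 to 1908 genes. In ZM against GF between 0 and 3 were lower, beside 1.08% to 6.72%, and between 0 and 1 higher, beside 173 to 851 genes. Each fit tested between 15639 and 15981 genes. After quantile normalization 1 Hox gene, hoxa13b, was higher in GF than in CV, beside 1862 of 15904 genes tested. Lower in ZM than in CV were 3 Hox genes after quantile normalization and 3 after median-of-ratios rescaling, beside 10.6% and 13.2% of all genes tested. After equal-sum rescaling there were 7, beside 21.5%. In ZM against GF the count of lower genes was 2 of 47 Hox genes with no filter, beside 2.96% of all genes tested. It was 0 without trend, beside 3.25%, and 3 with only the 2 groups compared, beside 4.27%. With a replicate block and only these groups, a fit added after seeing the data, it was 5, beside 7.56%. The replicate block in the model of all 3 groups gave counts of 5, 1 and 4 lower genes in GF against CV, ZM against GF and ZM against CV. These stood beside 19.0%, 3.65% and 17.6% of all genes tested. Only hoxa2b was lost, in ZM against CV. The median of groups 1 to 4 in GF against CV was -0.43 when the limit was a mean FPKM of 5, which leaves 11 of the 13. When single samples were left out it lay between -0.21 and -0.11, and in ZM against CV between -0.43 and 0.07 (0.0739 without ZM replicate 3). For groups 5 to 13 with single samples left out it lay between -0.10 and 0.10 in GF against CV and between -0.18 and 0.09 in ZM against CV. The median of all genes became -0.09 in GF against CV and -0.16 in ZM against CV after equal-sum rescaling, and 0.12 and 0.07 after quantile normalization. The cause was not tested. The unknown number of reads behind each FPKM limits the genes of groups 11 to 13 and HOXB13 most, since 8 Hox genes had a mean below 0.1 FPKM.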

Other observations

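Genes beside the Hox clusters are values outside the comparisons above. For each of the 7 clusters, the 5 nearest protein-coding genes on each side in the RefSeq table were taken, which gave 70 names. Of these, 53 were matched in the gene name table and the others were left out. The matches gave 54 IDs, of which 42 were tested. In GF against CV their median log2 fold change was 0.15, beside 0.02 for all genes tested. At an unadjusted p under 0.05 there were 9 (21.4%) with a lower and 3 with a higher mean in GF, beside 18.0% and 4.7% of all genes. The lower ones include EVX2 (ENSDARG00000059255), the homeobox gene that flanks the hoxd cluster at its posterior end and acts in spinal interneurons, with 6.295 ± 2.86 FPKM in CV, 2.51 ± 0.871 in GF and 2.48 ± 0.372 in ZM (SD, n = 3 each), a log2 fold change of -1.01 (limma, adjusted p = 0.0677). Others were hnrnpa1a (ENSDARG00000011020), a splicing factor, at -1.90, and srcap (ENSDARG00000005236), a chromatin remodeler, at -0.71. The FPKM of nfe2l3 (ENSDARG00000019810) averaged 24.6 ± 4.53 in CV, 14.2 ± 1.24 in GF and 23.3 ± 1.68 in ZM (SD, n = 3 each), and all CV and ZM samples lay above all GF samples. It is 1 of 42, named for these values, and both comparisons share the GF samples. GF lay wholly below CV for 10 of the 42, beside 17.7% of all genes tested. ZM lay wholly above GF for 8, beside 10.4%, and the smallest adjusted p of a neighbour in ZM against GF was 0.848 with limma.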
